A study of Mus musculus with 8 samples.

Results

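Cells given a Runx1 DN retrovirus were compared directly with cells given a Satb1 retrovirus across all genes. Both groups come from Scid.adh.2c2, a mouse pro-T cell line. The comparison uses 4 of the 8 RNA-seq libraries of the study, the 2 of Runx1 DN and the 2 of Satb1, chosen by their treatment labels. The other groups were a mock retrovirus (2 libraries), which gives the level between them, and wild-type Runx1 (2 libraries), which shares no library with the comparison. All 8 libraries share the cell line, a GFP-marked retrovirus, and RNA from 300000 infected cells sorted 2 days after infection. The letters DN, commonly read as dominant negative, are not expanded in the labels, nor is the stretch of Runx1 in the construct given. The Satb1 group is a gain of expression from a viral construct in the same line. These libraries do not show either construct in another line or in thymocytes. The labels do not say whether the 2 libraries of a group came from separate cultures, so p-values measure the spread between these libraries, which may be technical.

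Runx1 binds DNA together with its partner Cbfb and recruits activators or repressors such as the Tle proteins. Runx factors are needed through T cell development. Satb1 is a chromatin-organizing DNA-binding protein that is abundant in thymocytes and is known to be needed for normal Rag gene expression there. Pro-T cells that have passed T lineage commitment, the stage this line resembles, express Tcf7, Gata3, Bcl11b and Il2ra and have silenced PU.1 (Spi1), a regulator of myeloid and B cells.

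The deposited values were whole-number read counts per gene. Library totals were 23624498 and 27135363 in Runx1 DN, 29551987 and 33093330 in Satb1, 27077550 and 32950470 in mock, and 26866359 and 26504378 in Runx1 WT. Levels are given as CPM, counts scaled to library size after TMM normalization, one value per library, and 3 counts in a library correspond to 0.0953 to 0.125 CPM. CPM values do not correct for gene length, so they compare libraries and not genes. Differences are log2, Runx1 DN minus Satb1, with their standard error (SE) from edgeR's quasi-likelihood test over all 8 libraries. A gene is called higher or lower when its Benjamini-Hochberg adjusted p over all genes tested was under 0.05. Coordinates beside genes are mm9, as deposited.

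The targeted genes follow the labels. Runx1 (chr16:92601711-92826319) stood at 21201 and 24239 CPM in the Runx1 DN libraries, 181 and 184 CPM in Satb1 and 138 and 129 CPM in mock. The groups did not overlap, and the difference was 6.96 ± 0.13 (adjusted p = 2.17e-09). Runx1 took 2.16% and 2.48% of all counts in the Runx1 DN libraries. Satb1 (chr17:51875512-51965913) stood at 211 and 204 CPM in Runx1 DN, 3583 and 3983 CPM in Satb1 and 385 and 377 CPM in mock. The difference was -4.19 ± 0.09 (adjusted p = 2.88e-09). Counts over exons do not separate the RNA of a construct from that of the cell's own gene. Each construct also moved the other target against mock: Satb1 fell by 0.88 ± 0.08 with Runx1 DN (adjusted p = 2.02e-05), and Runx1 rose by 0.45 ± 0.10 with Satb1 (adjusted p = 0.0266).

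The 11 T lineage markers summed to 2980 and 2824 CPM in Runx1 DN, 5822 and 5784 in Satb1 and 4433 and 4459 in mock. Notch1 alone made up 1717 and 1596 CPM of the sums in Runx1 DN, 1835 and 1571 in Satb1 and 814 and 731 in mock. T lineage markers were thus present in all these groups, but several, among them Tcf7, Gata3, Lck, Thy1 and Il2ra, were much lower in Runx1 DN, as given below. Of 5 B cell and 5 NK cell defining markers, all stayed under 1 CPM in the 4 libraries. Of 8 myeloid markers 6 stayed under 1 CPM, among them Cebpa, Lyz2, Mpo, Elane and Cd14, and the sum of the 8 was 17.1 and 19.4 CPM in Runx1 DN against 12.5 and 19.7 in Satb1, most of it Itgam. Adgre1 and Csf1r were nevertheless called higher in Runx1 DN at low levels. Adgre1, the macrophage antigen F4/80, stood at 2.12 and 2.09 CPM against 0.137 and 0.0953 in Satb1 (4.13 ± 0.43, adjusted p = 5e-05), and Csf1r, the receptor of a macrophage growth factor, at 0.457 and 0.828 CPM against 0.103 and 0.0635 (2.92 ± 0.61, adjusted p = 0.0052). The stromal sum was 88.9 and 87.6 CPM in Runx1 DN and 98.5 and 113 in Satb1 against 24.4 and 26.9 in mock. It was nearly all Pdgfrb, which was lower in Runx1 DN than in Satb1 (-0.29 ± 0.08, adjusted p = 0.0224). The collagen genes were low and went the other way: Col1a2 stood at 0.998 and 1.58 CPM in Runx1 DN against 0.24 and 0.318 (2.20 ± 0.45, adjusted p = 0.0039) and Col1a1 at 0.79 and 0.504 CPM against 0.0343 and 0.191 (2.43 ± 0.62, adjusted p = 0.0118). The Col1a1 call was lost without the first Runx1 DN or the first Satb1 library (adjusted p 0.0754 and 0.0656), and Col3a1 had no count in either group. The part of other cell types in the differences below was not tested. In bulk RNA, fewer cells of a kind and less RNA per cell cannot be told apart.

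Of 12699 genes tested, 4825 were called between Runx1 DN and Satb1, which is 38.0%. There were 2465 genes higher in Runx1 DN (19.4%) and 2360 lower (18.6%), and 6027 genes had an unadjusted p under 0.05. With libraries scaled by their totals alone the split was 3069 higher and 1694 lower, and with upper-quartile scaling 2865 and 1940, so the near balance of the directions depends on the scaling. Most differences were small, with 3300 of the called genes under 2-fold. Among larger differences the balance tilted toward Runx1 DN: 1000 genes were at least 2-fold higher and 525 at least 2-fold lower, and at 4-fold or more the counts were 541 and 230. Of these, 255 and 45 lay under 1 CPM on average, where a gene enters the test only if some group raises it. With a stricter filter on low levels the 4-fold counts were 214 and 165, and with limma voom 415 and 314. The level of the genes differed with the direction. Among genes with a mean of 100 CPM or more, 12.2% were higher and 32.8% lower in Runx1 DN, and among those from 1 to 5 CPM, 26.3% were higher and 12.3% lower. The distance of each group from mock was unequal as well: 4375 genes were called between Runx1 DN and mock (34.5%) and 808 between Satb1 and mock (6.36%). Those last comparisons share the mock libraries. Leaving out the first Runx1 DN library lowered the calls between Runx1 DN and Satb1 to 3210, of which 1405 were lower, and leaving out the second Satb1 library left 1518 lower.

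**Figure D1:**
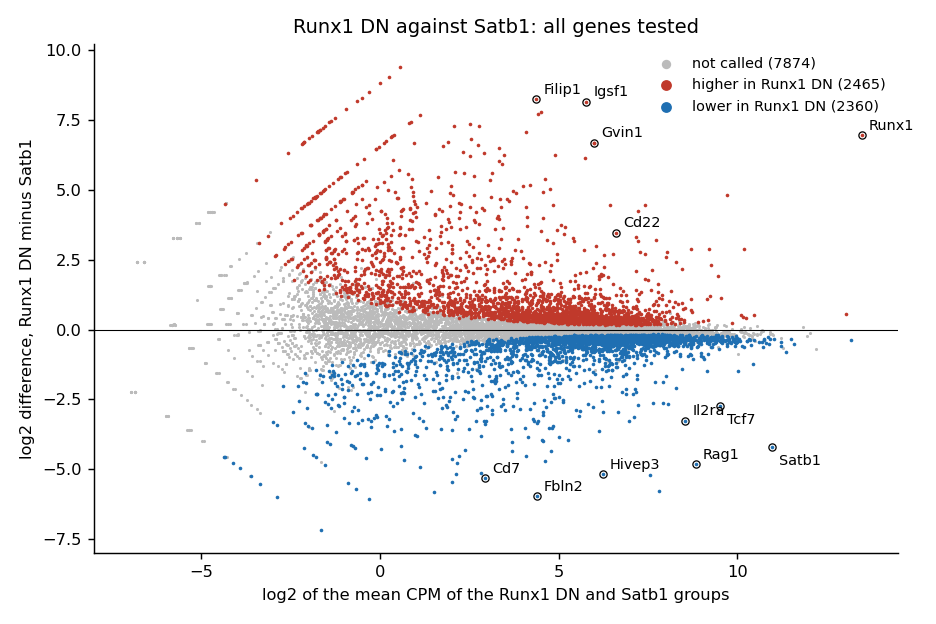
Each point is a gene, with the log2 of its mean CPM over both groups on the x axis and the log2 difference, Runx1 DN minus Satb1, on the y axis; red and blue mark genes called higher (2465) and lower (2360) in Runx1 DN, and 35 tested genes with no count in either group are not drawn. The large differences of genes at low levels lie mostly above 0, and the called genes at the highest levels lie mostly below 0.

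The largest increases in Runx1 DN were in genes that were nearly silent with Satb1. Filip1, which encodes a filamin-interacting protein, stood at 40.5 and 42.6 CPM in Runx1 DN, 0.103 and 0.159 in Satb1 and 0.34 and 0.543 in mock. It had the largest positive difference among the genes eligible for naming, 8.25 ± 0.22 (adjusted p = 7.09e-09). Igsf1, an immunoglobulin superfamily membrane glycoprotein, reached 110 and 109 CPM against 0.309 and 0.445 (8.16 ± 0.27). The keratin gene Krt17 reached 46.9 and 42.9 CPM against 0.172 and 0.222 (7.79 ± 0.21). None of these genes was called between Satb1 and mock except Filip1, which fell by 1.73 with Satb1. Otog, Eef1a2, Mpdz and Man1c1 had the same shape, with 6.03 to 14 CPM in the Runx1 DN libraries and at most 0.137 in the Satb1 libraries. Mpdz had only 3 counts over both Satb1 libraries, a ratio of 170 with a counting interval of 57.9 to 829. The apolipoprotein L genes Apol9a and Apol9b, which are close copies whose reads may have been split, differed by 7.07 and 7.73.

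The largest decreases ran through surface, matrix and lymphoid genes. Fbln2, a matrix fibulin, stood at 0.707 and 0.612 CPM in Runx1 DN, 43.1 and 39.5 in Satb1 and 25.1 and 21.4 in mock, a difference of -5.97 ± 0.20 (adjusted p = 2.42e-08). Hivep3, a large zinc finger protein, stood at 3.58 and 4.46 CPM against 162 and 130 (-5.17 ± 0.16), with mock at 128 and 105. Ly6d, a surface protein of early lymphoid cells, stood at 0.499 and 0.288 CPM against 16.4 and 11 (-5.13 ± 0.36). Adgrg1, Lgr6, Tspan9, Adam19 and Bst1 differed by -4.72, -4.53, -4.78, -5.19 and -5.80. Ndrg1, a gene that responds to low oxygen, differed by -5.79 ± 1.45 with an adjusted p of 0.0106, but its Satb1 libraries stood at 30.8 and 857 CPM and its mock libraries at 166 and 1375. Without the second Satb1 library its difference was -1.95 and its adjusted p 0.147, and with either Runx1 DN library left out the adjusted p was 0.0765 or 0.0697.

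**Figure D2:**
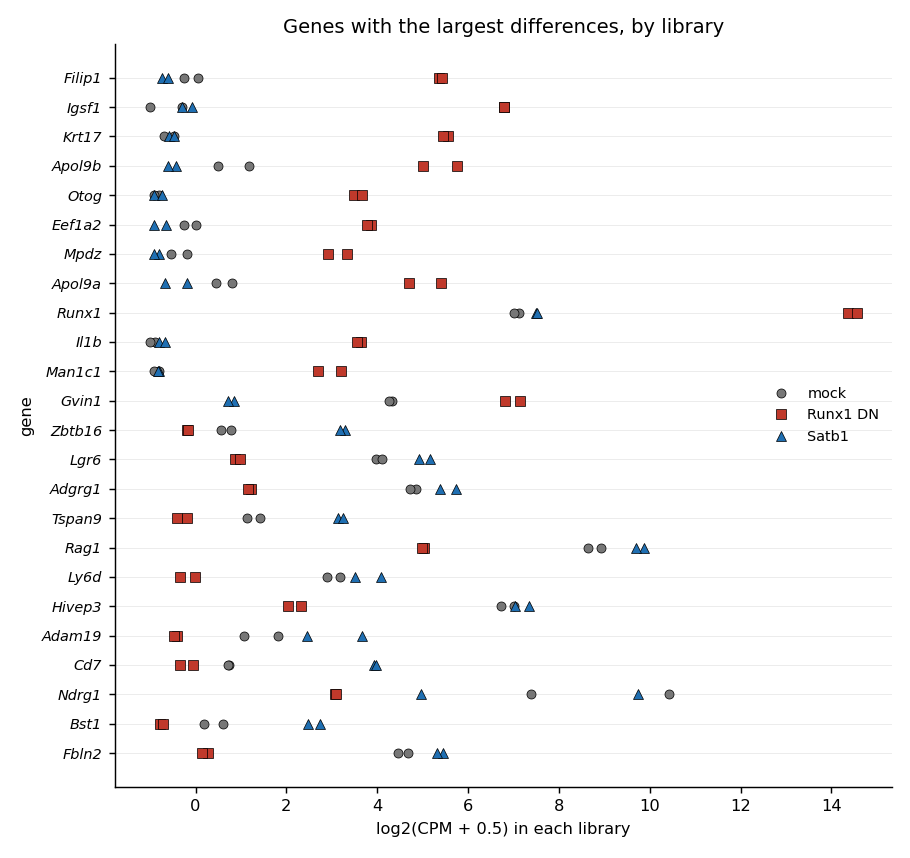
The 12 largest differences in each direction among eligible genes, with log2(CPM + 0.5) of every mock, Runx1 DN and Satb1 library on the x axis and 1 gene per row. For genes higher in Runx1 DN, mock lies near Satb1 in most rows; for genes lower in Runx1 DN, mock lies at or below Satb1 on average except for Ndrg1, whose Satb1 and mock libraries are spread over several log2 units.

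At the other extreme, 7 genes had no count in either Satb1 library and at least 1 CPM in Runx1 DN, and no gene had the reverse. Against a floor of 3 counts over the Satb1 group, the imprinted gene Peg3 was at least 60.8-fold higher, the metalloproteinase inhibitor gene Timp4 at least 46.8-fold, and Gp9, a platelet membrane glycoprotein, at least 40.5-fold. Others were 4930429F24Rik, Adamdec1 and Pik3c2b. The 7 genes were chosen after their values were seen, by their zero counts.

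T lineage transcription factors were mostly lower in Runx1 DN than in Satb1. Of 19 tested, 12 were lower (63.2%) and 4 higher (21.1%), with a median log2 difference of -0.85. Of all genes tested, 18.6% were lower and 19.4% higher, and the median was 0.00. Tcf7 (chr11:52065785-52096516), the Notch-induced factor that starts the T cell program, stood at 185 and 197 CPM in Runx1 DN, 1243 and 1310 in Satb1 and 1226 and 1240 in mock. The Satb1 and mock libraries lay together and both Runx1 DN libraries far below them, a difference of -2.74 ± 0.08 (adjusted p = 7.09e-09). Gata3 (chr2:9778705-9800227), needed for T lineage commitment, had 41.4 and 35.9 CPM in Runx1 DN, 163 and 199 in Satb1 and 186 and 232 in mock (-2.23 ± 0.13, adjusted p = 1.01e-06). Ets1 had the same shape, 70.8 and 72.0 CPM against 214 and 230 (-1.64 ± 0.07). For Tcf7, Gata3 and Ets1 the difference from mock was called with Runx1 DN and not with Satb1.

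For other factors both groups stood away from mock. Lef1, a partner of beta-catenin related to Tcf7, had 67.7 and 65.4 CPM in Runx1 DN, 442 and 389 in Satb1 and 98.1 and 89.0 in mock. Its difference of -2.64 ± 0.09 was composed of -0.49 ± 0.09 for Runx1 DN against mock and 2.15 ± 0.09 for Satb1 against mock, each called. Zbtb16, which encodes PLZF, the regulator of innate-like T cells, had 0.374 and 0.396 CPM in Runx1 DN, 9.34 and 8.52 in Satb1 and 0.983 and 1.21 in mock (-4.52 ± 0.30). Bcl11b, the commitment factor, differed less: 313 and 265 CPM against 514 and 556, a difference of -0.89 ± 0.09. Myb, chosen after its values were seen, stood at 124 and 113 CPM in Runx1 DN and 551 and 463 in Satb1, with mock at 378 and 291. Factors higher in Runx1 DN included Zbtb7b, Tox and Id3. Of these Zbtb7b, the CD4 lineage factor, had 154 and 122 CPM in Runx1 DN against 57.7 and 58.5 in Satb1 (1.25 ± 0.10).

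The V(D)J recombination genes were lower in Runx1 DN where they were called. Of 10 tested, 5 were lower in Runx1 DN (50.0%, against 18.6% of all genes tested) and none higher (median -0.38). Rag1 (chr2:101478411-101489689), a subunit of the recombinase, stood at 31.9 and 31.1 CPM in Runx1 DN, 941 and 827 in Satb1 and 489 and 396 in mock. The mock libraries lay between the groups, and the difference was -4.81 ± 0.13 (adjusted p = 6.98e-09), with -3.81 ± 0.12 for Runx1 DN relative to mock and 1.00 ± 0.11 for Satb1 relative to mock. Rag2 (chr2:101464905-101472685), its partner gene, followed the same order at low levels, 0.416 and 0.576 CPM in Runx1 DN, 2.38 and 3.19 in mock and 8.93 and 11.1 in Satb1 (-4.31 ± 0.27). Xrcc6, the Ku70 end-joining subunit, had 64.2 and 68.5 CPM against 232 and 226 (-1.79 ± 0.07). The ligase gene Lig4 had 12.6 and 14 CPM in Runx1 DN and 24.6 and 24.5 in Satb1 (-0.89 ± 0.09), both below the 39.1 and 37.6 CPM of mock.

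Most T cell surface genes and T cell receptor signalling genes were lower in Runx1 DN, with smaller differences for the receptor chains than for other members. Of 17 surface and receptor chain genes tested, 11 were lower (64.7%, against 18.6% of all genes tested) and none higher (median -1.04). Of 17 kinases and adaptors, 12 were lower (70.6%) and 2 higher (11.8%, against 19.4% of all genes tested), with a median of -0.95. Lck (chr4:129225588-129235616), the kinase that starts receptor signalling, stood at 70.2 and 75.4 CPM in Runx1 DN, 474 and 457 in Satb1 and 294 and 293 in mock. The difference was -2.68 ± 0.07 (adjusted p = 6.98e-09), and mock lay between the groups. Thy1, a surface marker of T cells, had 45.0 and 47.4 CPM against 225 and 228 in Satb1 and 230 and 222 in mock (-2.29 ± 0.08). Cd7, a surface receptor of early T cells, had 0.457 and 0.288 CPM in Runx1 DN, 1.17 and 1.15 in mock and 14.6 and 15.1 in Satb1 (-5.33 ± 0.18). Spn, which encodes the mucin CD43, and the costimulatory receptor gene Cd28 differed by -3.07 and -1.67. The receptor chain genes Cd3e, Cd3g and Cd247 differed less, by -0.55, -0.33 and -1.04. Cd3g stood at 152 and 153 CPM in Runx1 DN, 184 and 200 in Satb1 and 148 and 160 in mock. The activator Rasgrp1 and the adaptor Sh2d2a differed by -2.53 and -2.80.

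An exception among kinases and adaptors was Fyn, the Src-family kinase related to Lck. It stood at 238 and 224 CPM in Runx1 DN, 56.3 and 52.6 in Satb1 and 28.8 and 29.8 in mock (2.08 ± 0.08, adjusted p = 4.54e-08). Fyn was raised over mock in both groups. Lck and Fyn thus differed in opposite directions.

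**Figure D3:**
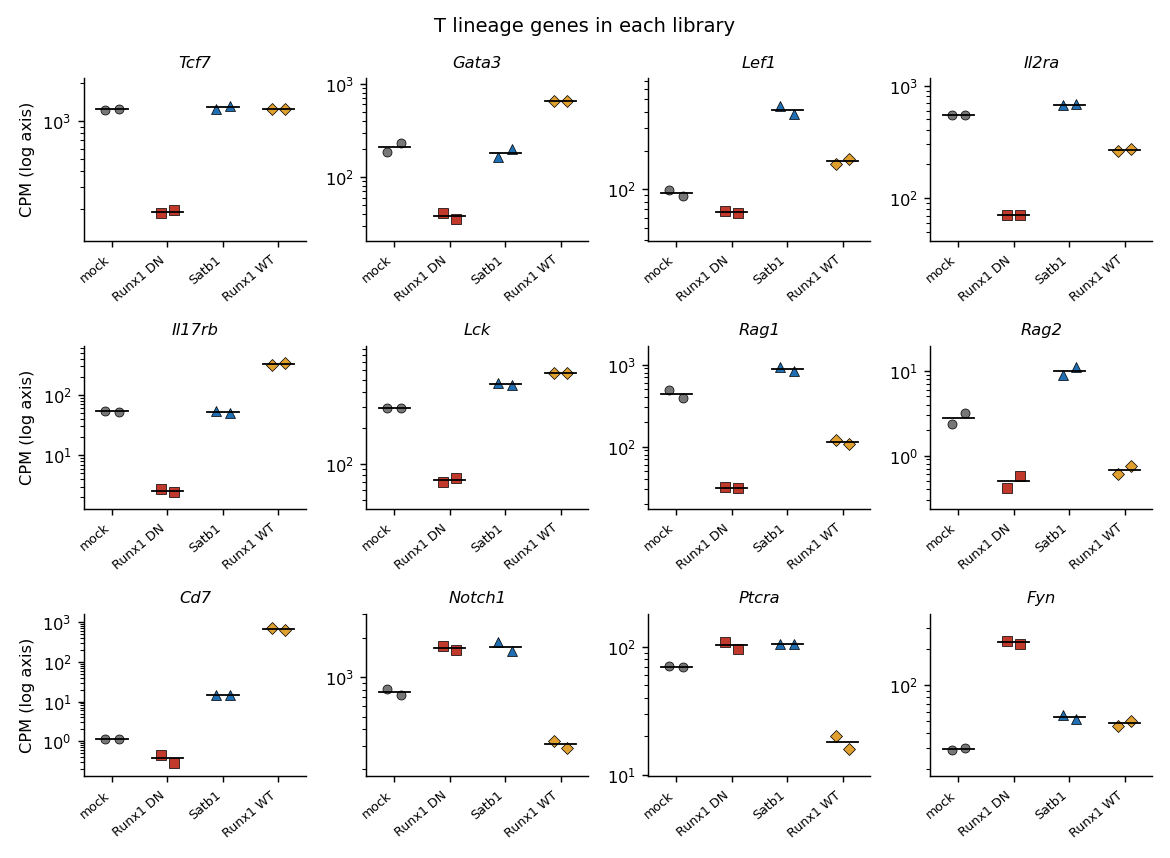
Each panel shows 1 gene, with CPM on a log axis, 2 points per group (1 per library) and a bar at the group mean. Tcf7, Gata3, Il2ra and Il17rb have Satb1 close to mock and Runx1 DN below both; Rag1, Rag2, Cd7 and Lck have mock between; Notch1 and Ptcra have Runx1 DN and Satb1 together above mock; Fyn is highest in Runx1 DN.

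Promoter sequences are shown for Lck and Rag1, lower in Runx1 DN, and Filip1, higher. They were taken in order of adjusted p among genes whose window held the Runx motif TGTGGT, on either strand. Only named genes were eligible: those of the T lineage and myeloid lists, of the largest differences, or with mock between. For a gene with several RefSeq starts the first window that held the motif was taken, so its start may not be that of the counted transcripts. Windows run from 250 bases before to 50 after the RefSeq start in GRCm38.p6, a different build from the mm9 counts, and capitals mark the motif or its reverse complement. They lie at chr4:129573592-129573891 (minus strand), chr2:101649483-101649782 (minus strand) and chr9:79830933-79831232 (minus strand).
Lck: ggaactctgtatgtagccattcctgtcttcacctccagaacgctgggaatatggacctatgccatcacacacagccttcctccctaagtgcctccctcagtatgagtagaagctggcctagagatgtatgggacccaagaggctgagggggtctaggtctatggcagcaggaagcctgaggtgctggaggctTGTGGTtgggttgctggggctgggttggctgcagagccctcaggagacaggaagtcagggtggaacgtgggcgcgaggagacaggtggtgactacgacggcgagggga
Rag1: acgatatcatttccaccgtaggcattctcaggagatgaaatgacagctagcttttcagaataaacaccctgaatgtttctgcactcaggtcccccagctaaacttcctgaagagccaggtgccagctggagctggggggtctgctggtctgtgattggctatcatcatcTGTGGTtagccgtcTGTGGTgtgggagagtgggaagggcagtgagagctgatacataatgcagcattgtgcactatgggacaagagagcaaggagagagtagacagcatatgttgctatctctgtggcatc
Filip1: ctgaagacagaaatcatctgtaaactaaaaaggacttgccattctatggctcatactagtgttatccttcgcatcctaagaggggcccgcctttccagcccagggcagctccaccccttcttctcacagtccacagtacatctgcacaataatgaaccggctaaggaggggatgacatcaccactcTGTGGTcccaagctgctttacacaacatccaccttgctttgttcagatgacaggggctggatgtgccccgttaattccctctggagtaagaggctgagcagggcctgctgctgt
The Rag1 window held 2 matches and the others 1 each. Of the genes tested, 9643 matched the promoter table by symbol and 7747 of them had 1 window. TGTGGT was found in 17.4% of the 281 windows of genes at least 2-fold lower in Runx1 DN, 12.9% of the 560 of genes at least 2-fold higher, 13.2% of those of genes not called and 13.1% of all 7747. Over all 32851 windows of the table the share was 16.8%. A match is a run of letters and not a shown binding site.

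Notch genes divided. Il2ra (chr2:11564419-11614821), the IL-2 receptor alpha chain and a marker of the pro-T stage, stood at 70.9 and 70.1 CPM in Runx1 DN, 667 and 688 in Satb1 and 550 and 547 in mock (-3.26 ± 0.07, adjusted p = 2.88e-09). The receptor gene Notch1 did not follow it: 1717 and 1596 CPM in Runx1 DN, 1835 and 1571 in Satb1 and 814 and 731 in mock. Its difference between the constructs was -0.04 with a 95% interval of -0.27 to 0.19 (adjusted p = 0.792), while each construct stood above mock, by 1.10 ± 0.10 and 1.14 ± 0.10. Ptcra, the pre-T cell receptor alpha chain, was alike: -0.03 between the constructs (interval -0.25 to 0.19), with 110 and 96.8 CPM in Runx1 DN, 105 and 106 in Satb1 and 70.8 and 69.6 in mock. The Notch target Dtx1, chosen after its values were seen, differed by -0.09 (interval -0.32 to 0.14). Both differences from mock use the same mock libraries. Among targets, Hes5 was higher in Runx1 DN, 88.4 and 74.1 CPM against 41.0 and 37.3 (1.05 ± 0.13), and Heyl was at 1.29 and 2.38 CPM against 0.206 and 0.0953 (3.60 ± 0.49). In all, 6 of 17 Notch list genes were higher (35.3%, against 19.4% of all genes tested) and 4 lower (23.5%, against 18.6%), with a median of 0.25. With the stricter filter 3 were higher, and with limma voom 2 were lower.

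Cytokine receptor genes were lower in Runx1 DN more often than higher. Il17rb, a receptor chain for the cytokine IL-25, stood at 2.70 and 2.48 CPM in Runx1 DN, 55.0 and 50.3 in Satb1 and 54.2 and 52.9 in mock (-4.34 ± 0.10, adjusted p = 4.43e-09). Il9r had 3.08 and 2.56 CPM against 44.3 and 42.7, with mock at 46.5 and 44.7 (-3.95 ± 0.11). For Il17rb and Il9r, Satb1 lay at the mock level. Il7r, the receptor of the main cytokine for early T cells, chosen after its values were seen, fell against mock in both groups. It had 8.27 and 6.66 CPM in Runx1 DN, 25.1 and 18.0 in Satb1 and 113 and 100 in mock, and the groups differed by -1.53 ± 0.17 (adjusted p = 8.74e-05). Over the list of 27 genes tested, 11 were lower (40.7%, against 18.6% of all genes tested) and 7 higher (25.9%, against 19.4%), with a median of -0.23. The higher ones included the signalling genes Stat3, Socs2 and Socs3.

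Genes of other blood lineages split by lineage. Of 38 myeloid genes 22 were tested. A gene with low counts entered the test only if some group raised it, so the 13 called higher and 3 called lower are given without weight on their share. Spi1 (chr2:90936835-90955916), which encodes PU.1, stood at 18.8 and 15.5 CPM in Runx1 DN, 0.927 and 1.87 in Satb1 and 0.227 and 1.05 in mock (3.60 ± 0.36, adjusted p = 4.24e-05). The adaptor Tyrobp had 15.4 and 13.1 CPM against 0.515 and 0.921 (4.29 ± 0.26). Il1b, an inflammatory cytokine, had 11.9 and 11.3 CPM against 0.0687 and 0.127 (6.81 ± 0.35), and the fatty acid receptor Ffar2 6.90 and 6.66 CPM against 0.0687 and 0.0635. Cybb, the catalytic subunit of the phagocyte oxidase, had 8.07 and 11.8 CPM in Runx1 DN, 0.0687 and 0.318 in Satb1 and 1.06 and 1.37 in mock (5.62 ± 0.44). The genes lower in Runx1 DN were Fcer1g, Ncf4 and Fgr. With the stricter filter on low levels, 6 myeloid genes were called higher. Of the defining myeloid markers, Adgre1 and Csf1r were higher as given above and Itgam differed by -0.05 (interval -0.49 to 0.39), while Cebpa, Lyz2, Mpo, Elane and Cd14 stayed near 0.

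Cytotoxic and NK genes were lower in Runx1 DN where called, apart from Tbx21 and Serpinb9. Of 14 tested, 5 were lower (35.7%, against 18.6% of all genes tested) and 2 higher (14.3%, against 19.4%), with a median of -0.79. Gzma, the granzyme A protease, stood at 8.07 and 9.72 CPM in Runx1 DN, 47.1 and 51.2 in Satb1 and 106 and 119 in mock (-2.46 ± 0.11). Cd160, Ctsw and Nkg7 had mock between the groups and differed by -3.29, -3.55 and -4.68, with 0.108 to 1.58 CPM in the Runx1 DN libraries and 2.37 to 15.3 in the Satb1 libraries. Cd22, the inhibitory B cell lectin, was the B lineage gene with the largest difference, 179 and 176 CPM in Runx1 DN, 14 and 18 in Satb1 and 5.82 and 8.59 in mock (3.47 ± 0.15, adjusted p = 1.33e-07). Of the mast and progenitor genes, the mast cell protease Cpa3 stood at 4.53 and 5.15 CPM in Runx1 DN and 6.35 and 9.21 in Satb1 against 40.7 and 48.9 in mock. Its difference between the constructs, -0.69 ± 0.23, lost its call when any 1 library of either group except the first Satb1 library was left out (adjusted p 0.0873 to 0.27). The progenitor receptor Flt3 was lower in Runx1 DN, 5.65 and 6.05 CPM against 13.6 and 16.1 (-1.34 ± 0.14).

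**Figure D4:**
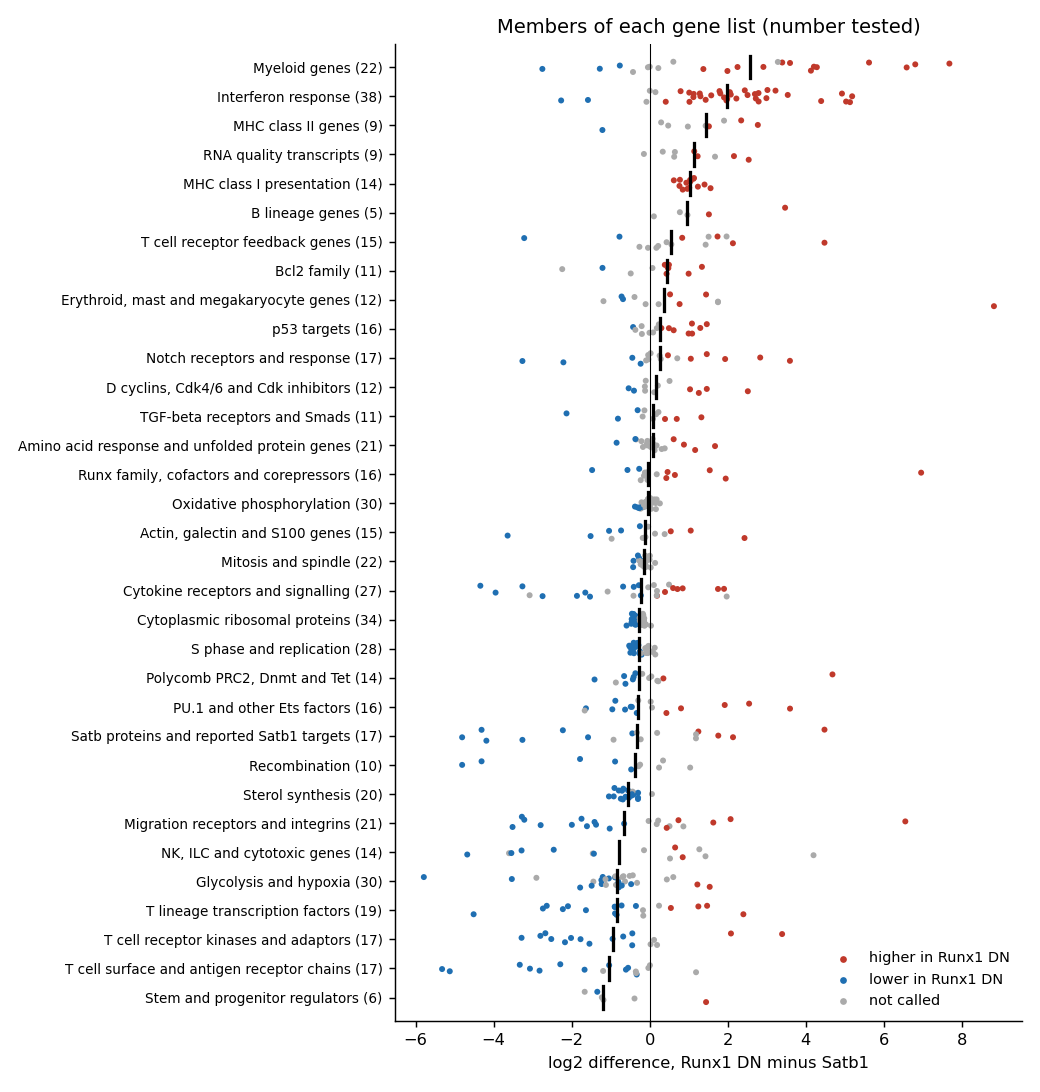
Each row is a gene list with the number of members tested, each point a member at its log2 difference, Runx1 DN minus Satb1, and the black bar the list median. Red and blue points were called higher and lower in Runx1 DN; interferon and MHC class I members lie almost wholly above 0, and sterol, T cell surface and T cell kinase members mostly below 0.

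Partners of Runx proteins differed in part through Satb1. The corepressors Tle6 and Tle2 stood at 67.0 and 73.5 CPM and at 50.3 and 49.8 CPM in Runx1 DN, 16.9 and 19.4 and 16.8 and 17.6 in Satb1, and 71.0 and 62.5 and 46.9 and 36.2 in mock. They differed by 1.95 ± 0.11 and 1.54 ± 0.12, and for both the fall against mock was called with Satb1 (-1.87 ± 0.11 and -1.27 ± 0.12). Neither was called between Runx1 DN and mock. Cbfa2t3, a corepressor of the ETO family, had 6.82 and 8.24 CPM in Runx1 DN against 21.6 and 20.5 in Satb1 and 24.0 and 18.6 in mock (-1.48 ± 0.14). Cbfb, the DNA-binding partner of Runx1, chosen after its values were seen, differed by -0.57 ± 0.07. From the list of Satb proteins and reported Satb1 targets 17 genes were tested, with a median of -0.33. In Runx1 DN 7 were lower (41.2%, against 18.6% of all genes tested) and 4 higher (23.5%, against 19.4%). Satb1 itself is one of the lower genes. With any 1 library of Runx1 DN or Satb1 left out 2 were higher, and with the stricter filter or limma voom 1.

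Homing genes followed the T lineage genes. Of 21 migration receptors and integrins, 11 were lower in Runx1 DN (52.4%, against 18.6% of all genes tested) and 5 higher (23.8%, against 19.4%), with a median of -0.66. Ccr4 stood at 3.33 and 4.07 CPM in Runx1 DN, 11.1 and 12.3 in mock and 37.0 and 35.1 in Satb1 (-3.28 ± 0.13). Ccr9, the gut- and thymus-homing receptor, stood at 2.54 and 2.81 CPM, 15.1 and 17.4 and 24.4 and 37.0 in the same order (-3.52 ± 0.22). Selplg, a selectin ligand, was below mock in both groups, 6.74 and 6.59 CPM in Runx1 DN, 23.6 and 29.6 in Satb1 and 68.1 and 82.6 in mock (interval of the difference -2.30 to -1.69). S1pr1, the lymphocyte egress receptor, went the other way, with 102 counts over both Runx1 DN libraries and 1 over both Satb1 libraries, a ratio of 119 with a counting interval of 20.9 to 4755. S1pr1 was chosen after its values were seen. Among actin, galectin and S100 genes, Tagln2 and Lgals1 were lower, by -1.52 ± 0.08 and -1.04 ± 0.09. Tgfb1 was higher in Runx1 DN, 80.2 and 73.0 CPM against 30.5 and 30.6 (1.33 ± 0.08), and the receptor Tgfbr1 lower (-0.82 ± 0.10).

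Feedback regulators of receptor signalling were called about as often as all genes tested, of which 19.4% were higher in Runx1 DN and 18.6% lower. Dusp1 and Dusp5, phosphatases of MAP kinases, had 13.9 and 10.8 CPM and 7.69 and 4.14 CPM in Runx1 DN against 3.26 and 4.10 and 1.34 and 1.33 in Satb1. They differed by 1.74 ± 0.20 and 2.13 ± 0.35. Tnfrsf9 and Dusp10 were lower, by -3.22 ± 0.64 and -0.78 ± 0.14. The list had 4 genes higher (26.7%) and 2 lower (13.3%) of 15 tested, with a median of 0.55, and 2 higher without the second Satb1 library or with limma voom.

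Interferon response genes were higher in Runx1 DN almost throughout. All 38 were tested, 33 were higher in Runx1 DN and 2 lower, with a median of 1.98, where 19.4% of all genes tested were higher. Zbp1, a nucleic acid sensor, stood at 107 and 126 CPM in Runx1 DN, 44.5 and 45.3 in mock and 13.6 and 15.7 in Satb1 (2.99 ± 0.11, adjusted p = 4.54e-08). The GTPase gene Gbp2 stood at 280 and 267 CPM, 81.1 and 69.2 and 34.2 and 44.8 in the same order (2.79 ± 0.14). Irgm1, another GTPase of cell-autonomous defence, stood at 261 and 301 CPM in Runx1 DN, 175 and 151 in mock and 76.9 and 85.7 in Satb1 (1.79 ± 0.11). For each of these the mock libraries lay between the groups. Rsad2 (viperin) and Oasl2 had the same order with 36.9 and 53.8 CPM and 24.1 and 38.8 CPM in Runx1 DN against 1.65 and 1.33 and 1.10 and 0.699 in Satb1, and differed by 4.93 ± 0.35 and 5.14 ± 0.36. Gvin1, a large interferon-induced GTPase outside the list, stood at 113 and 140 CPM in Runx1 DN, 19.5 and 18.7 in mock and 1.31 and 1.14 in Satb1 (6.69 ± 0.39). Against mock, 32 list genes were higher and 2 lower with Runx1 DN, and 22 were lower and 3 higher with Satb1, comparisons that share the mock libraries. Of all genes tested, 34.5% were called in either direction between Runx1 DN and mock, and 6.36% between Satb1 and mock.

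The exceptions were membrane restriction factors and Mx genes, named after their values were seen. Ifitm2 stood at 4.24 and 5.44 CPM in Runx1 DN, 23.2 and 23.7 in Satb1 and 1.78 and 2.33 in mock (-2.27 ± 0.15), and Ifitm1, under 1 CPM in all 4 libraries, differed by -1.58 ± 0.47. Ifitm3, Mx1 and Mx2 were not called, with intervals of -0.66 to 0.49, -0.37 to 0.66 and -0.48 to 0.48. The median log2 gap of the interferon list between the second and first library was 0.42 in Runx1 DN, 0.12 in Satb1, 0.18 in mock and 0.27 in Runx1 WT. Members of the Ifit, Oas and Gbp families are near copies whose reads may have been shared. Leaving out the second mock and second Satb1 libraries together left 32 higher and 2 lower.

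**Figure D5:**
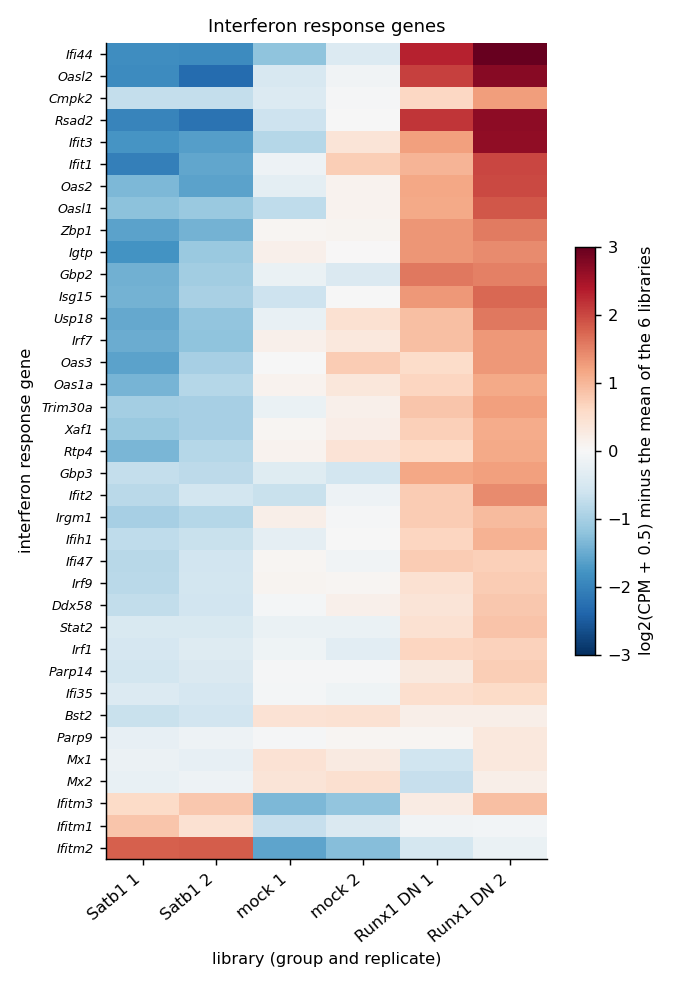
Rows are 37 interferon response genes in order of their difference, columns the 6 Satb1, mock and Runx1 DN libraries, and colour log2(CPM + 0.5) minus the gene's mean over the 6 libraries, with colours saturating at 3 on either side. Most rows run from blue in Satb1 through pale in mock to red in Runx1 DN, and the Ifitm rows at the bottom run the other way or peak in Satb1.

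The promoters of these genes were searched for GAAANNGAAA, the core of the interferon-stimulated response element, on either strand, allowing overlapping matches. It was found in 15 of the 24 genes of the list that had 1 window (62.5%), in 10.5% of windows of genes at least 2-fold higher in Runx1 DN, in 2.85% of those at least 2-fold lower, and in 3.38% of all. The windows of Gbp2 (chr3:142620413-142620712, plus strand) and Irgm1 (chr11:48871371-48871670, minus strand), in GRCm38.p6 from RefSeq, are shown with matches in capitals; they were chosen after their values were seen.
Gbp2: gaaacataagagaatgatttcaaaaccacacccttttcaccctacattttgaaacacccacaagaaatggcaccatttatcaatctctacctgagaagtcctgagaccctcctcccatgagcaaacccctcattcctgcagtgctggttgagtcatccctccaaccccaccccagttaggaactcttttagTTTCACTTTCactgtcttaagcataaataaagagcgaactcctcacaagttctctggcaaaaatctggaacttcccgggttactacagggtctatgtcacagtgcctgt
Irgm1: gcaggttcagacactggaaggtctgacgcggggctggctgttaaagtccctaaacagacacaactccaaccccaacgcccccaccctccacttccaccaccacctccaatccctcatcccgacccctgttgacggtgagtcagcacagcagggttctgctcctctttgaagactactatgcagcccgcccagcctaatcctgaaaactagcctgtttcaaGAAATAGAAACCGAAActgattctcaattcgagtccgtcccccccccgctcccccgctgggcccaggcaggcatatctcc
The mean GC content of the interferon list's windows was 50.9%, against 60.4% over all windows of genes tested, and the part of base composition in these shares was not tested.

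Antigen presentation by MHC class I moved with the interferon genes. All 14 genes of the list were higher in Runx1 DN, where 19.4% of all genes tested were. The median was 1.02 and the range 0.62 to 1.56. H2-T23, a nonclassical class I gene, stood at 93.5 and 82.6 CPM in Runx1 DN, 27.3 and 32.4 in Satb1 and 34.9 and 37.2 in mock (1.56 ± 0.10, adjusted p = 1.63e-06). The peptide transporter Tap1 stood at 294 and 269 CPM against 96.8 and 116 in Satb1 and 159 and 169 in mock (1.41 ± 0.09). The classical genes H2-K1 and H2-D1, which are similar in sequence and uncertain to the extent that reads were shared, differed by 1.04 ± 0.07 and 1.14 ± 0.09. The class I count was 14 of 14 under all 20 other settings tried. Of 9 class II genes (median 1.43), Ciita, Cd74 and H2-Aa were higher and H2-Oa lower. Their median depended on genes at low levels: it was 0.38 with limma voom and 0.49 over the 5 genes left by the stricter filter. Ciita, the class II transactivator, had 1.08 and 1.22 CPM against 0.24 and 0.0953, and H2-Aa had 14 and 3 counts in all, a ratio of 5.46 with a counting interval of 1.52 to 29.6. The H2-Aa call was lost when any 1 library of Runx1 DN or Satb1 was left out (adjusted p 0.0783 to 0.18) and with DESeq2 or limma voom (0.0988 and 0.203).

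Replication and mitosis genes differed by small amounts and were lower in Runx1 DN where called, while cyclin and Cdk inhibitor genes went both ways. Of 28 S phase and replication genes, 17 were lower in Runx1 DN (60.7%, against 18.6% of all genes tested) and none higher, with a median of -0.27. Among all genes with a mean of 100 CPM or more, such as Mcm6, 32.8% were lower. With library size alone 13 S phase genes were lower, and with limma voom 13 were lower and 1 higher. The helicase subunits Mcm6, Mcm4 and Mcm7 led, at -0.53 ± 0.07, -0.50 ± 0.07 and -0.48 ± 0.07; Mcm6 stood at 476 and 488 CPM in Runx1 DN, 683 and 706 in Satb1 and 634 and 658 in mock. Leaving out the second Runx1 DN library or the second Satb1 library left 11 lower. Of 22 mitosis genes 6 were lower (27.3%, median -0.15), led by Nusap1 and Kif11. That share lies between the 18.6% of all genes tested and the 32.8% of genes with a mean of 100 CPM or more. With library size alone 3 were lower and 1 higher, and with limma voom 2 and 1. Fewer were lower without the first Runx1 DN library or without either Satb1 library. Among cyclins and inhibitors, Ccnd3 was higher in Runx1 DN, 395 and 340 CPM against 170 and 189 (1.03 ± 0.11). The inhibitors Cdkn1a (p21) and Cdkn1c (p57) were higher by 1.46 ± 0.21 and 2.52 ± 0.29, with Cdkn1a at 114 and 76.7 CPM against 30.7 and 38.4. Cdk6 was lower, by -0.54 ± 0.09.

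Of 16 p53 targets, 8 were higher in Runx1 DN (50.0%, against 19.4% of all genes tested). Trp53 itself was lower (6.25%, against 18.6%), and the median was 0.27. Trp53inp1 stood at 332 and 314 CPM in Runx1 DN, 149 and 155 in Satb1 and 84.3 and 85.2 in mock (1.09 ± 0.08). Of 11 Bcl2 family genes 7 were higher (63.6%, against 19.4% of all genes tested) and 1 lower (9.09%, against 18.6%), with a median of 0.43. The killers Bmf and Bbc3 (Puma) were higher, Bmf with 222 and 231 CPM against 77.5 and 102 (1.34 ± 0.12) and Bbc3 by 1.00 ± 0.16. Bid, a link from death receptors to mitochondria, was lower, 52.3 and 51.4 CPM against 121 and 119 (-1.21 ± 0.09). With the second mock and second Satb1 libraries left out, 4 of the family were higher. Of the 21 amino acid response and unfolded protein genes 4 were higher (19.0%, about the 19.4% of all genes tested) and 2 lower (9.52%), with a median of 0.08, and 2 were higher without the first Runx1 DN library.

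Sterol synthesis was lower in Runx1 DN as a group. Of 20 genes tested 18 were lower and none higher, with a median of -0.55, where 18.6% of all genes tested were lower. Lss, which closes the sterol rings, stood at 74.8 and 60.9 CPM in Runx1 DN, 146 and 134 in Satb1 and 113 and 120 in mock (-1.05 ± 0.10). Dhcr7 and Idi1 differed by -0.90 ± 0.09 and -0.92 ± 0.10. Without the second Runx1 DN library 9 were lower. Ribosomal protein genes depended on the scaling: with limma voom 6 of 34 were lower, with a median of -0.05. In the main fit 16 of 34 were lower (47.1%, against 18.6% of all genes tested, median -0.27). Among all genes with a mean of 100 CPM or more, 32.8% were lower. Rps4x led the 16 lower genes, at 866 and 907 CPM against 1288 and 1390 (-0.59 ± 0.09). That count was 6 without the second Satb1 library and 10 without the first Runx1 DN library. Oxidative phosphorylation genes were lower in 5 of 30 (16.7%, median -0.05), below the 18.6% of all genes tested, with 1 to 8 over the libraries left out in turn.

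Glycolysis and hypoxia genes were lower in 13 of 30 (43.3%, against 18.6% of all genes tested) and higher in 2 (6.67%, against 19.4%). The Satb1 and mock libraries, however, disagreed within their groups. The median log2 gap between the second and first library of this list was 1.00 in Satb1 and 0.78 in mock, against 0.03 in Runx1 DN and -0.08 in Runx1 WT. Ldha, lactate dehydrogenase, stood at 846 and 821 CPM in Runx1 DN, 1343 and 2592 in Satb1 and 1985 and 2962 in mock (-1.24 ± 0.27, adjusted p = 0.00497). Both Runx1 DN libraries lay below all others of these groups. Hk1, hexokinase, was tighter, 32.5 and 34.8 CPM against 111 and 121 (-1.78 ± 0.14, adjusted p = 7.8e-06). Without the first Satb1 library 26 genes of the list were lower, and without the second 3. With either Runx1 DN library left out the count was 3.

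Several chromatin regulators were lower in Runx1 DN. Of 14 Polycomb, Dnmt and Tet genes, 6 were lower (42.9%, against 18.6% of all genes tested) and 2 higher (14.3%, against 19.4%), with a median of -0.28. Mtf2, an accessory subunit of the Polycomb complex PRC2, stood at 190 and 191 CPM in Runx1 DN, 507 and 508 in Satb1 and 625 and 618 in mock (-1.42 ± 0.06, adjusted p = 1.49e-07). The maintenance methyltransferase Dnmt1 had 343 and 399 CPM against 561 and 580 (-0.62 ± 0.09), and Ezh2, the PRC2 methyltransferase, 198 and 211 against 260 and 268 (-0.37 ± 0.06). Phf19, another accessory subunit of PRC2, had 50 counts over both Runx1 DN libraries and 2 over both Satb1 libraries, a ratio of 29.2 with a counting interval of 7.68 to 248. Of 9 RNA quality transcripts 4 were higher in Runx1 DN (44.4%, against 19.4% of all genes tested) and none lower. The nuclear RNAs Malat1 and Neat1 stood at 964 and 1098 CPM and 356 and 311 CPM in Runx1 DN against 492 and 442 and 133 and 152 in Satb1 (1.14 ± 0.13 and 1.23 ± 0.12). Fos and Xist were the others. The part of RNA quality in the differences above was not tested.

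Some genes had the mock libraries strictly between the constructs with all the differences called. Of 12699 genes tested, 4825 were called between the constructs. Under the naming rule 87 genes with mock between had Runx1 DN highest and 98 had Satb1 highest. The rule asks for a mean of at least 5 CPM in the higher group and leaves out predicted gene models, so these are not counts over all genes. The genes farthest from mock in both directions are given. Mpeg1, a pore-forming protein of phagocytes, stood at 18.3 and 25.3 CPM in Runx1 DN, 4.01 and 4.15 in mock and 0.206 and 0.349 in Satb1. It differed from mock by 2.42 ± 0.25 with Runx1 DN and by -3.84 ± 0.48 with Satb1. Ppfia2 and Fbn1 had the same order, with log2 differences from mock of 2.14 and 1.76 under Runx1 DN, against -2.35 and -2.17 under Satb1. In the other direction the angiomotin-like gene Amotl1 stood at 4.45 and 4.86 CPM in Runx1 DN, 17.5 and 20 in mock and 69.9 and 75.8 in Satb1, differing from mock by -2.01 ± 0.13 and 1.95 ± 0.10. The collagen gene Col6a2 and the synaptotagmin-like gene Sytl3 differed from mock by -2.05 and -2.12 with Runx1 DN and by 1.96 and 1.74 with Satb1. Bst1, the CD157 gene, stood at 0.0832 and 0.108 CPM, 0.643 and 1.02 and 5.05 and 6.20 in the same order. Both differences use the same mock libraries, so a shift in mock would move both by the same amount.

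The same genes were set beside wild-type Runx1 against mock, a comparison that shares no library with Runx1 DN against Satb1 and called 8975 genes, or 70.7%. Of all genes tested, 38.9% were higher and 31.8% lower with Runx1 WT than with mock. Of the 2465 genes higher in Runx1 DN than in Satb1, 1455 were higher with Runx1 WT (59.0%, or 29.4% of the genes higher with Runx1 WT) and 285 lower (11.6%). Of the 2360 genes lower in Runx1 DN, 1232 were lower with Runx1 WT (52.2%, or 30.6% of the genes lower with it) and 694 higher (29.4%). For the 230 genes at least 4-fold lower in Runx1 DN the order turned: 136 were higher with Runx1 WT and 41 lower. For the 541 at least 4-fold higher, 262 were higher with Runx1 WT and 53 lower. With limma voom, 143 of 415 such genes were higher with Runx1 WT and 103 lower, and of 314 at least 4-fold lower in Runx1 DN 154 were higher and 83 lower. With the stricter filter on low levels the counts were 166 and 25 of 214, and 100 and 36 of 165. Of the 541 and 230 genes, 255 and 45 lay under 1 CPM on average. Such a gene entered the test only if some group raised it, which may be Runx1 WT. The 4-fold counts are to be read against the 38.9% and 31.8% of all genes tested.

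Named genes show both patterns. Cd7 stood at 729 and 628 CPM in Runx1 WT and Gata3 at 657 and 655, both above mock, and Lck at 574 and 567, also above. Il17rb reached 309 and 336 CPM with Runx1 WT. Tcf7 was not called, with 1236 and 1240 CPM in Runx1 WT against 1226 and 1240 in mock (0.01, adjusted p = 0.95). Rag1 fell by 1.95 with Runx1 WT, to 121 and 108 CPM, and Il2ra fell by 1.03, so these genes were lower than mock with both Runx1 constructs. With Satb1, Rag1 was above mock, and Il2ra only slightly so, at 667 and 688 CPM against 550 and 547 in mock. Notch1 and Ptcra, above mock with Runx1 DN and with Satb1, fell by 1.33 and 1.96 with Runx1 WT. Spi1 was not called with Runx1 WT, at 0.357 and 0.321 CPM (adjusted p = 0.23). All 38 interferon genes were higher with Runx1 WT than with mock, and so were all 14 MHC class I genes, against 38.9% of all genes tested. With Runx1 DN against mock, 32 of the 38 and all of the 14 were higher. Of all genes tested, 34.5% were called in either direction in that comparison.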

How the data were processed

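RNA-seq read counts of 8 libraries of Scid.adh.2c2 cells, in 4 groups of 2, were analysed. HOMER produced the deposited counts, per the file headers: exon reads were summed for each mm9 gene, with its transcripts merged. The deposited counts are whole numbers without length or depth adjustment, whatever unit the table's name gives. The submitters' processing notes list Trimmomatic 033, STAR 2.4.0, RSEM 1.2.25, edgeR 3.6.8 and HOMER. The deposited table's own comparisons were not used here. Counting without strand cannot separate overlapping or antisense genes, and close paralogs may share reads.

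After filterByExpr (at least 10 counts, 15 in total), 12699 of 24505 genes were tested. TMM scaled the libraries. A model of the 4 group means over all 8 libraries was tested by quasi-likelihood in edgeR 4.0.16 under R 4.3.3, with 4 residual degrees of freedom (prior degrees of freedom 5.84, common biological coefficient of variation 0.0818). All 8 libraries share one estimate of the spread. All p-values are two-sided, adjusted by Benjamini-Hochberg across every tested gene. Intervals of differences are at the 95% level from the same fit. Ratios with 1 to 3 counts in a group carry exact counting intervals, and a group at 0 was set to 3 counts. Such intervals and floors describe counting error alone, because no molecular identifiers are described for these reads. The fit was tested on simulated counts. DESeq2 1.42.0 and limma 3.58.1 gave 2 of the 20 alternatives.

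The 33 gene lists and the groups compared were chosen with earlier results of these data known. Lists are described by their counts, mostly with their median. The values to read them against are those of all genes tested, 19.4% higher and 18.6% lower with a median of 0.00. Named genes were the 12 largest differences in each direction among called genes with the libraries apart and a group mean of at least 5 CPM, Runx1 and Satb1, up to 4 members of each list by adjusted p, up to 8 genes in each direction with mock between the constructs, and cell type markers. Others are said to have been chosen after their values were seen, or, where a list's called members are enumerated, belong to that list. A few genes that meet these rules are not reported here. Promoter windows are RefSeq's for GRCm38.p6 and no coordinate was converted between builds. Each printed window is the first of its gene that held the motif, so its start may not be that of the counted transcripts.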

Additional observations from a re-analysis of the deposited data

How the results depend on the processing

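Over the 20 alternatives, the differences of the 159 named genes that were called kept their direction in every case. Of 9 named genes not called, 5 changed sign, among them Notch1 (-0.15 to 0.20), Ptcra (-0.11 to 0.05) and Itgam (-0.34 to 0.34). Over all named genes 3191 values were on the same side of the threshold, 99 were no longer past it and 2 were newly past it. The differences of Runx1 (6.13 to 7.07) and Satb1 (-4.26 to -3.87) stayed past it throughout. Calls between Runx1 DN and Satb1 numbered 4346 with DESeq2 and 4351 with limma voom against 4825, and the share of called genes that were higher in Runx1 DN was 64.4% by library size alone and 59.6% by upper quartile against 51.1%. Library size alone moved the median difference of all genes to 0.08.

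Leaving out 1 library at a time gave 3210 to 5028 calls between Runx1 DN and Satb1, 1789 to 2517 higher and 1405 to 2511 lower. For Runx1 DN against mock the range was 2888 to 4612, for Satb1 against mock 423 to 841, and for Runx1 WT against mock 8064 to 8919. Satb1 against mock gave 510 calls without the first mock library, 423 without the second and 476 without the first Satb1 library. A group left with 1 library is assumed to vary like the others. Without the second mock and second Satb1 libraries together, which were high in glycolysis genes, there were 2995 calls between Runx1 DN and Satb1, of which 1340 were lower, 2710 for Runx1 DN against mock and 308 for Satb1 against mock; fewer libraries entered these fits.

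The groups share replicate numbers, but the labels do not say that a number marks a shared culture or day. Deviations of libraries with the same number correlated at 0.109 between Runx1 DN and Satb1 and at 0.536 between mock and Satb1. With the replicate number as a block, calls between Runx1 DN and Satb1 were 5696 (2888 higher and 2808 lower), and Satb1 against mock moved from 808 to 1265. The cause was not tested.

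Among gene lists, counts given in the text for interferon, MHC class I, T lineage, T cell surface and T cell kinase genes stayed within 1.5 times of their values under all alternatives for the direction that most members took, and glycolysis, ribosomal, mitosis and oxidative phosphorylation counts did not. Genes at or near 1 CPM rest on few counts, and their differences are limited by depth.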
